A study of Sus scrofa with 6 samples.

Results

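Far from any annotated gene start, 8939 stretches of the pig genome held a called peak of open chromatin from every library of developing somites and myotomes. They were found by joining the called peaks of 6 single-cell ATAC-seq libraries wherever these overlapped by at least 1 bp, which gave 294825 merged regions. A peak of each library lay in 78533 of these. The 8939 are the autosomal ones among the 78533 that were under 5000 bp wide, overlapped no annotated gene body and lay more than 50 kb from any annotated transcription start site of the assembly Sscrofa11.1. They are called distal shared regions here. In 8652 of them some stretch lay in peaks of all 6 libraries, while the other 287 were joined through overlaps alone and have no base that all 6 covered. Another 45 regions met every condition but the width, and 200 met every condition but lay on X or Y. All of them are left out, as are the rest of the 49600 autosomal intergenic regions over 50 kb away, most of which lacked a peak in some library. Because a peak in all 6 libraries was asked for, that these regions were open at every stage is what chose them and no result. The rule used no contrast between stages or breeds.

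Single-cell ATAC-seq cuts accessible DNA in each nucleus with the transposase Tn5 and counts the cuts per cell barcode. The libraries came from somites at embryonic day (E) 18 and E21, the paired blocks of mesoderm beside the neural tube, and from myotomes at E28, the part of the somite that forms skeletal muscle. Each of these 3 stages was represented by 1 library of Tibetan pigs (ZZ) and 1 library of Duroc x Tibetan pigs (DZ), and each library pooled 5 embryos of 1 sow. Tissue and stage therefore change together at E28 and cannot be told apart, nor can a sow and its stage and breed. There is no replicate within a stage and breed, so the 2 breeds of a stage stood in for replicates in the tests of stage, and p-values measure only the spread between these pools. After keeping barcodes with 2000 to 30000 counts, the libraries held 9286 to 11243 barcodes and from 89816504 (E28 ZZ) to 133037579 (E18 ZZ) counts, both E28 libraries being the shallowest. The 2 libraries of a stage are called its pair, with values given as ZZ and then DZ. Any pair of libraries had 135 to 189 barcode sequences in common.

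Regions of open chromatin far from genes are mostly enhancers and insulator sites. Enhancers bind transcription factors and act on promoters through DNA looping, often over long distances and past other genes, while sites bound by CTCF help to set where loops form. In the somite, genes for developmental regulators are known for wide gene-poor surroundings that hold many such elements. Which gene a distal region acts on cannot be read from accessibility, so the flanking genes given below are positions and not targets.

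Windows of 9 regions are printed first, each the middle 300 bases of the stretch that peaks of most libraries covered, read from the plus strand of Sscrofa11.1. They show 3 regions whose counts rose by E28, 2 whose counts fell, 1 of the most open steady ones, a steady one with a CTCF match, a riser with a MEF2 match, and the region farthest from a start site. Capitals mark every match, on either strand, to the 20 motifs described with the base composition below. The steady region with a CTCF match and the riser with a MEF2 match were picked after their values were seen.
Between NFIB and MPDZ (chr1:208473285-208473584, rose by E28): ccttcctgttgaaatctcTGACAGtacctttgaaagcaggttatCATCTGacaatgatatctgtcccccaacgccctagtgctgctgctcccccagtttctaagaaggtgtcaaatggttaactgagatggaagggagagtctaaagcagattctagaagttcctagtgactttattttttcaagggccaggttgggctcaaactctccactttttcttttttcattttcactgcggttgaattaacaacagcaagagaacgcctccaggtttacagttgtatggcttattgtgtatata
Between PFDN4 and DOK5 (chr17:55314518-55314817, rose by E28): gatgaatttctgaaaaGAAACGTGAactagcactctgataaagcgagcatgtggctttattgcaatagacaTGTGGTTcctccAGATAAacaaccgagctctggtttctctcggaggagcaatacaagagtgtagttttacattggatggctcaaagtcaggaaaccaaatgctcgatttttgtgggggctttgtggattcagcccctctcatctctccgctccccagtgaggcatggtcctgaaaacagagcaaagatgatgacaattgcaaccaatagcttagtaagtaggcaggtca
Between EFNA5 and FBXL17 (chr2:112903010-112903309, rose by E28): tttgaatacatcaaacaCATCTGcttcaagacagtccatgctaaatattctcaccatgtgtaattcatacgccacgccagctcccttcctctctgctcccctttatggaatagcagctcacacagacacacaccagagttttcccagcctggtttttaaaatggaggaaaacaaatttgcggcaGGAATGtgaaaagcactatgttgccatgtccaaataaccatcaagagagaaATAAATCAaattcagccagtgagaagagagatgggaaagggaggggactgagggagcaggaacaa
Between SLC10A2 and EFNB2 (chr11:72223519-72223818, fell by E28): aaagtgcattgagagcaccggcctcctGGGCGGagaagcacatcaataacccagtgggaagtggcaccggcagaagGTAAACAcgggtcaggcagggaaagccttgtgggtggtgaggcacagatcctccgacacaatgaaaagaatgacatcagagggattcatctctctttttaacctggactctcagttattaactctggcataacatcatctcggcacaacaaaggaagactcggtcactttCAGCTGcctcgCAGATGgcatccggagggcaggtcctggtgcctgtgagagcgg
Between TGM3 and STK35 (chr17:33306007-33306306, fell by E28): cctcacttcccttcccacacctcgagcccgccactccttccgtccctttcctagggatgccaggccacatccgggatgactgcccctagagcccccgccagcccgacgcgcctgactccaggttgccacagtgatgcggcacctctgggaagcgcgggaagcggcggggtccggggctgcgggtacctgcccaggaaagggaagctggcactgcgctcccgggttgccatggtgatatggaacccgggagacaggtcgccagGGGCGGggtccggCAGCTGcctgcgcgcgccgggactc
Between LRRC28 and MEF2A (chr1:138341536-138341835, steady): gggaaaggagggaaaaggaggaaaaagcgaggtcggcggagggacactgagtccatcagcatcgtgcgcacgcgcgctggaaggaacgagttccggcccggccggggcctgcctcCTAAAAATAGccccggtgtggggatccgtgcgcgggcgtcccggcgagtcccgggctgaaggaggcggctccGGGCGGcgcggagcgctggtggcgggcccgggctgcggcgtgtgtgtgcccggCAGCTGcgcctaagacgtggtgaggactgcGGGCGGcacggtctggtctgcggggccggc
Between NPTX1 and SLC26A11 (chr12:2089534-2089833, steady, CTCF match): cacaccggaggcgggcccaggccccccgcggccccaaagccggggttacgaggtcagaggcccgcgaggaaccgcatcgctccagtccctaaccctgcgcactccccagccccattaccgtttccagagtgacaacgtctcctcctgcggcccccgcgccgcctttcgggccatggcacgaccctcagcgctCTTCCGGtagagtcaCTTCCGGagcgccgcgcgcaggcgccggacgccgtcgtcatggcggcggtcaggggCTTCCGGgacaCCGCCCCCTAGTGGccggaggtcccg
Between ATF7IP and GRIN2B (chr5:58409048-58409347, rose, MEF2 match): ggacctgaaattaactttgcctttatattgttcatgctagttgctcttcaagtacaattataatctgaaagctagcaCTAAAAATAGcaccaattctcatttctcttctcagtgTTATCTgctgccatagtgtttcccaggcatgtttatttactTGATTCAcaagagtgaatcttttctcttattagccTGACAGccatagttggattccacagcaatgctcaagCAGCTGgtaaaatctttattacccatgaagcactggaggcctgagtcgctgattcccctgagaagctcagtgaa
Between PCDH9 and KLHL1 (chr11:40615059-40615358, farthest from a start site): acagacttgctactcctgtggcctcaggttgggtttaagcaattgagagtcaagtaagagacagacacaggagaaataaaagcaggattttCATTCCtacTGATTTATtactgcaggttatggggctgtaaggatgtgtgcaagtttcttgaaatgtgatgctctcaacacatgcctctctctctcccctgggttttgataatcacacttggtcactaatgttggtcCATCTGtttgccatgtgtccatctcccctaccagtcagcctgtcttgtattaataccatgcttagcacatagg

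The windows beside TGM3 and MEF2A are GC-rich, with 70% and 72%, while those beside NFIB and EFNA5 have 42.3% and 44%. Over the 9 windows the GC content ran from 40.0% in the window between ATF7IP and GRIN2B to 72.3% in that between NPTX1 and SLC26A11.

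The distal shared regions were of ordinary peak size and spread over all 18 autosomes. Their median width was 1088 bp, with an interquartile range of 747 to 1651 bp. Their median distance to the nearest start site was 105 kb and the largest was 1160 kb. In all, 4221 (47.2%) lay within 100 kb of a start site, 3502 (39.2%) between 100 and 250 kb, 1028 (11.5%) between 250 and 500 kb, and 188 (2.10%) farther. Chromosome 1 held the most, 1099. Per megabase they were densest on chromosome 10, with 5.52, and on chromosome 15, with 5.29, where they made up 20.2% of all regions shared by the 6 libraries. They were sparsest on chromosome 2, with 2.63 per megabase. At the 50 kb limit, the member between SOX1 and TUBGCP3 was 50003 bp from a start site, and the nearest region left out, on chromosome 5, was 49998 bp away. At the width limit, the member between HRH4 and ZNF521 was 4985 bp wide and the nearest one left out, on chromosome 11, was 5013 bp.

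A distal shared region was open in few cells. The mean over the 6 libraries of the percent of kept barcodes with a count had a median of 1.98% and ranged from 0.261% to 33.8%. Only 61 of the 8939 regions were open in over 10% of barcodes in every library, against 7052 of 14575 promoter regions, meaning shared regions at a start site or in the 2 kb before one. At the other end, 299 distal regions were below 1% in every library. Such shares depend on depth, since each nucleus yields few cuts per site. They also depend on covered length. Its median per library was 607 to 847 bp for distal regions and 1594 to 2055 bp for promoter regions.

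Per covered length, distal regions were below promoters and close to regions in introns at the same distance. The level used is the count scaled to a library total of 1000000 (CPM), per kilobase of called peak. The median distal region had 3.31 and 3.65 in the E18 pair, 4.03 and 4.01 in the E21 pair and 4.92 and 4.91 in the E28 pair, while the median promoter region had between 11 and 14. The mean log2 ratio of the median distal to the median promoter region was -1.57 ± 0.116 (SD, n = 6 libraries). The ratio of open barcodes, taken per region and not per kilobase, was -2.70 ± 0.141. Against 15642 nearer intergenic regions the log2 ratio was -0.12 ± 0.075, and against 9693 intron regions over 50 kb from a start site it was 0.04 ± 0.007. Every one of these 4 ratios had the same sign in all 6 libraries, which gave p = 0.03125 in an exact two-sided permutation test that flips signs over libraries, and 0.03125 after Benjamini-Hochberg adjustment over the 4 tests. This is the smallest p that 6 libraries allow. The small ratio to intron regions vanished when the level was taken per region instead of per covered kilobase (-0.00, exact permutation p = 0.8125). Per region the log2 ratio to promoters was -2.88, and this is the value that the ratio of open barcodes can be set beside.

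**Figure D1:**
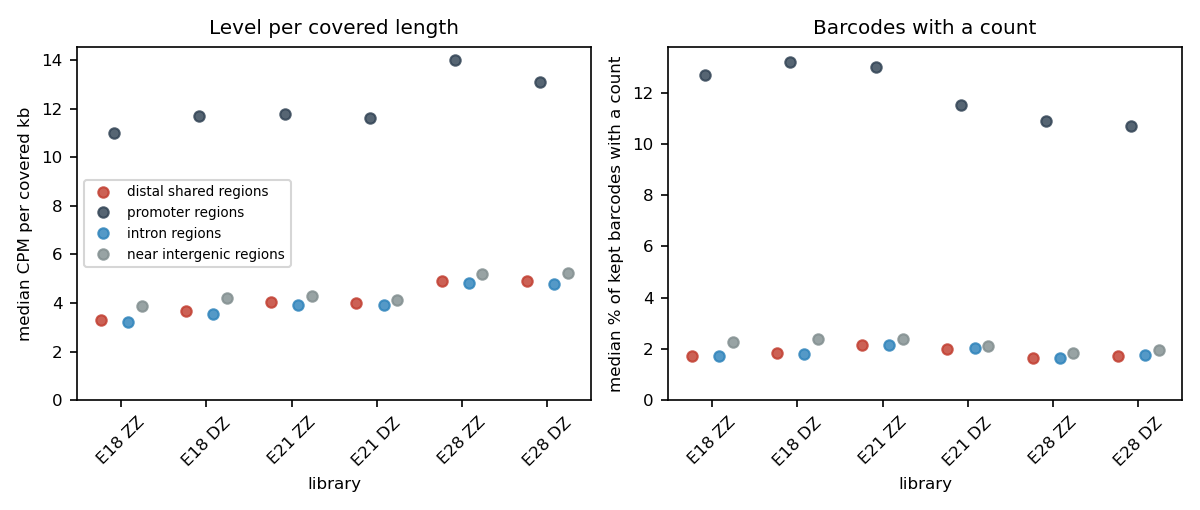
Median level of each class of region in each library, as CPM per kilobase of called peak (left) and as the percent of kept barcodes with a count (right), with 1 point per library. In the left panel distal shared regions and intron regions lie together between 3.22 and 4.92 and promoters stand apart at 11 to 14 in all 6 libraries.

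The length that called peaks covered changed between libraries and moved with the counts. The deposited counts hold cuts inside each library's own peaks, so a region with a shorter peak also loses the cuts beside it. Only 2047 distal regions (22.9%) had covered lengths within 1.5 times of each other in the 6 libraries, against 63.7% of promoter regions, and the median ratio of the largest to the smallest covered length was 2.12. The shortest cover fell in E28 ZZ for 2928 regions and in E28 DZ for 2865. The distal regions together were covered over 8.35 to 9.32 Mb in the 4 somite libraries, but over 6.82 and 6.90 Mb in the E28 pair, and took 4.07% to 4.95% of each library's counts. Some cover was very short: 514 regions had under 100 bp in at least 1 library. Whether a called change lay in the accessibility of the site or in the length of the peak cannot be told apart for most regions, and values for the regions of nearly constant cover are therefore set beside the main groupings.

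The question behind the study's stages is how the regulatory landscape changes as somites give rise to muscle. Between E18 and E28 counts changed at 3427 distal shared regions, 38.3% of them, where 37.1% of all shared regions changed. Counts rose at 2020 of them (22.6%, against 19% of all 78533 shared regions) and fell at 1407 (15.7%, against 18.1%). Over all distal regions the median log2 fold change was 0.11, and over all shared regions it was -0.02. Of these calls, 1882 rises and 1261 falls were of at least 2-fold, a count not taken over all shared regions. At low counts small changes seldom pass the test, so no typical size of change is read from the calls. At 1258 rises (62.3%) and 945 falls (67.2%) the E21 library lay between E18 and E28 in both breeds, as it did at 70% of the rises and 71.3% of the falls among all shared regions. Bulk sums over a library cannot tell more cells of a type from more open chromatin per cell.

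The first step, E18 to E21, consisted mainly of gains. In all 9.45% of distal regions were called, against 6.47% of all shared regions. Counts rose at 734 distal regions (8.21%, background 4.78%) and fell at 111 (1.24%, background 1.68%), and the median log2 change was 0.16 beside -0.00 over all shared regions. The second step, E21 to E28, had more losses and 8.66% calls (background 7.04%), with 300 rises (3.36%, background 2.48%) and 474 falls (5.30%, background 4.56%). Regions of nearly constant cover had 46 rises and 19 falls in this step. Counts and cover moved together and E28 covers were the shortest, so keeping regions by their cover leaves out many that fell, and no direction is read from that subset. Of the 3921 distal regions covered over at least 50% in every library, fitted with the like of all classes (11.1% called), 302 rose and 269 fell. Intron regions over 50 kb from a start site gave nearly the same shares, 8.20% and 1.24% in the first step and 22.3% and 15.2% between E18 and E28. Promoter regions rose at 1.65% and fell at 1.2% in the first step. Between E18 and E28 they rose at 23.7% and fell at 16%, close to the shares of distal regions. Each test was edgeR's quasi-likelihood test with Benjamini-Hochberg adjustment at 0.05 over all shared regions. In all, 5387 distal regions (60.3%) were called in no stage contrast. That share was not taken over all shared regions, and no trait of distal regions is read from it. Fitted changes were under 0.25 on the log2 scale in all 3 contrasts at 505 distal regions (5.65%). The same held for 5.5% of intron regions, 9.26% of near intergenic regions, 11.7% of all shared regions and 27.0% of promoter regions.

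Counts of calls on single steps moved widely when 1 library was left out. Such a fit has 1 residual degree of freedom, and the lone library of a stage is assumed to vary like the other pairs. The calls over all shared regions moved along and are given as percents in parentheses. Without E18 ZZ the 845 calls between E18 and E21 became 305 (1.92%), without E18 DZ 1 (0.00509%), and without E21 ZZ or E21 DZ 0 in edgeR, which then called 0 of all shared regions, where 2346 and 1631 still had an unadjusted p under 0.05. Without E28 ZZ or E28 DZ they became 2381 (21.3%) and 2429 (21.7%). For E28 against E21, leaving out E21 ZZ or E21 DZ left 0 of 774 calls in edgeR, with 1963 and 1898 at an unadjusted p under 0.05, and leaving out E28 ZZ gave 2111 (20.6%). The 3427 calls between E18 and E28 became 2089 (20.9%) without E18 ZZ and 1183 (10.5%) without E18 DZ. DESeq2, fitted to all libraries, called 2045, 2026 and 3978 distal regions in the 3 contrasts, beside 18.1%, 19.7% and 43.2% of all shared regions.

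Nearly all called changes went the way of the covered length. This was so for 99.1% of the calls between E18 and E21, 97.3% between E21 and E28 and 93.4% between E18 and E28. Across the 8939 regions, the log2 change in counts and the log2 change in covered length had Pearson correlations of 0.889, 0.896 and 0.918, where both come from the same libraries and the part of depth was not tested. Among distal regions of nearly constant cover, 450 rose (22.0%) and 69 fell (3.37%) between E18 and E28 in the fit of all shared regions. These shares were not taken over all shared regions of such cover, and their balance depends on the scaling. Refitting the regions of nearly constant cover of all classes alone lowered the log2 changes of the 2047 distal ones almost evenly. The median drop between E18 and E28 was 0.23, through the refit's own scaling. That refit gave 523 rises and 222 falls (background 18.6% and 16.3%, in all 34.9%, of 25935 such regions), 275 and 53 between E18 and E21 (6.18% and 3.13%, in all 9.31%) and 163 and 109 between E21 and E28 (4.48% and 4.81%, in all 9.29%). With the log of the covered length as an offset, 4237 distal regions rose and 615 fell (background 45.3% and 6.44%, in all 51.7%), so the share of rises among calls went from 58.9% to 87.3%, while the median over all shared regions moved to 0.42. From E21 to E28 the same offset turned 300 rises and 474 falls into 2549 and 303 (background 28.8% and 2.31%, in all 31.1%), with a median over all shared regions of 0.32. From E18 to E21 it gave 1653 rises and 388 falls (background 13.5% and 4.68%, in all 18.1%). Of the 2020 rises 1949 were also called under the offset, but of the 1407 falls 553 were, and 58 were called the other way. The offset raised the values of all classes together, so by its construction falls lose their call more readily than rises.

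**Figure D2:**
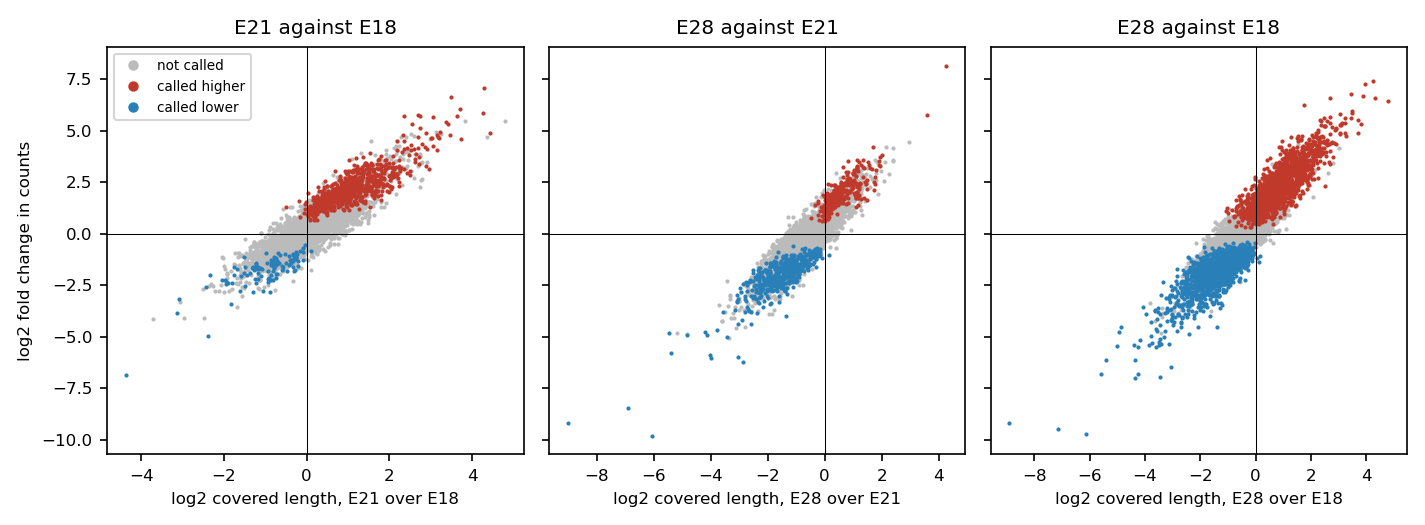
Log2 fold change in counts against the log2 ratio of covered length for the 3 pairs of stages, 1 panel each, with 1 point per distal shared region and called regions in colour. Between E18 and E28 the cloud follows the diagonal (Pearson 0.918) and called rises extend to regions whose covered length hardly changed.

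Among regions of nearly constant cover, the largest rise between E18 and E28 lay between NFIB, a nuclear factor I transcription factor of lung, brain and muscle development, and MPDZ, a scaffold protein of cell junctions. It spans chr1:208472680-208474490, 288 kb from the nearest start site, and its window is printed above. It had 2.48 and 2.60 CPM in the E18 pair, 7.08 and 9.78 in the E21 pair, and 28.0 and 32.8 in the E28 pair. Open barcodes went from 1.47% and 1.73% to 12.3% and 14.6%. No stage overlapped another, and both steps rose. The log2 fold change was 3.57 ± 0.202 (SE, edgeR adjusted p = 0.00258), and 3.18 with the covered-length offset.

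A region between the cadherin genes CDH8 and CDH11 rose early. CDH11 encodes a cell adhesion molecule of mesenchyme and its gene body lay 70.1 kb away, whereas CDH8 lay 2066 kb away. The region (chr6:25710673-25712612) had 4.50 and 4.77 CPM in the E18 pair, 18.2 and 27.9 in the E21 pair, and 41.4 and 40.0 in the E28 pair. Its log2 change was 2.29 ± 0.197 from E18 to E21 (adjusted p = 0.0193) and 3.14 ± 0.203 from E18 to E28 (adjusted p = 0.00258). It was the largest rise of the first step among regions of nearly constant cover. The step from E21 to E28, 0.84 ± 0.187, had an adjusted p of 0.0543.

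Late rise marked the region between PFDN4, a prefoldin chaperone subunit, and DOK5, an adaptor of receptor tyrosine kinases (chr17:55313909-55315322). It had 4.78 and 4.50 CPM in the E18 pair, 7.53 and 8.51 in the E21 pair, and 24.5 and 38.6 in the E28 pair. From E21 to E28 it rose by 1.96 ± 0.229 on the log2 scale (adjusted p = 0.0258), while E21 against E18 gave 0.78 with an adjusted p of 0.0934. Its covered length was nearly flat, 1331 and 1288 bp in the E18 pair and 1192 and 1363 bp in the E28 pair. With the offset the E28 to E18 change was 2.77, against 2.73 without it.

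Of the 6 largest rises at nearly constant cover 3 remain. They lay between PHF21B and ARHGAP8 on chromosome 5, VLDLR and SMARCA2 on chromosome 1, and TNP1 and TNS1 on chromosome 15. ARHGAP8 is an activator of GTP hydrolysis by small GTPases, SMARCA2 an ATPase of the SWI/SNF chromatin remodeller, and TNS1 a focal adhesion protein that links actin to integrins. The PHF21B region went from 2.93 and 1.64 CPM in the E18 pair to 18.3 and 21.9 in the E28 pair, a log2 change of 3.18 ± 0.320. The VLDLR region went from 3.92 and 3.65 to 25.8 and 28.0, and the TNP1 region from 2.27 and 2.56 to 13.6 and 20.1. The log2 changes of the last pair were 2.82 and 2.78. In all 3 the E21 libraries lay between those of E18 and E28.

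The deepest fall of nearly constant cover lay 84.7 kb from SOX13, a SOX family transcription factor (chr9:64658915-64661047), with SNRPE, a spliceosome protein, on its other side. It had 29.6 and 36.6 CPM in the E18 pair, 25.7 and 18.4 in the E21 pair, and 8.78 and 5.82 in the E28 pair. Every E28 value was below every earlier one, by a log2 change of -2.22 ± 0.249 against E18 (adjusted p = 0.00375). Its covered length shrank too, from 2059 and 2106 bp to 1679 and 1484 bp, and the offset fit gave -1.82.

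Other falls passed the test in the second step too. The region between SLC10A2, a bile acid transporter, and EFNB2, an ephrin ligand whose gene lay 1964 kb away, had 10.4 and 12.3 CPM in the E18 pair, 11.1 and 7.44 in the E21 pair, and 3.61 and 2.83 in the E28 pair. This was a log2 change of -1.84 ± 0.282 against E18 (adjusted p = 0.00693) and -1.51 ± 0.279 against E21 (adjusted p = 0.0391). Its covered length shrank from 937 and 923 bp in the E18 pair to 648 and 639 bp in the E28 pair. The offset fit gave -1.31 against E18. The region between TGM3, a transglutaminase of the epidermis, and STK35, a kinase, fell from 18.8 and 18.9 CPM through 16.5 and 11.3 to 7.80 and 4.88. That between SCARA3, a scavenger receptor, and CCDC25 fell from 21.9 and 20.5 through 14.1 and 14.4 to 8.04 and 6.07. The region in the gap between ZNF516 and TSHZ1, both zinc finger genes, fell from 30.2 and 29.2 through 26.9 and 21.2 to 8.56 and 11.9. Their log2 changes against E18 were -1.62, -1.60 and -1.54, and each also fell from E21 to E28. Their covers too were shorter in the E28 pair than in the E18 pair, and with the offset the changes were -1.20, -1.25 and -1.23.

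An early fall lay between CCNH, which encodes cyclin H, and TMEM161B on chromosome 2. It had 17.9 and 19.8 CPM in the E18 pair, 7.24 and 8.5 in the E21 pair and 4.89 and 8 in the E28 pair. The drop came by E21 (-1.27 ± 0.224, adjusted p = 0.0363), and E21 and E28 overlapped. Only 3 regions of nearly constant cover fell in the first step in the fit of all shared regions, against the 53 of the refit. Another of them lay between FN1, the gene of fibronectin, and MREG (12.2 and 13.7 CPM in the E18 pair, 6.21 and 5.47 in the E21 pair). The last, called the FGFR2 region here, lay 128 kb from WDR11 and 377 kb from the fibroblast growth factor receptor gene FGFR2. It had 33.9 and 40.6 CPM in the E18 pair and 24.1 and 22.5 in the E21 pair. With library totals in place of TMM factors the FGFR2 region missed the threshold (adjusted p = 0.0556). The FN1 region did not drop further, with 6.33 and 6.90 CPM in the E28 pair, whereas the FGFR2 region went on to 12.8 and 14.5.

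**Figure D3:**
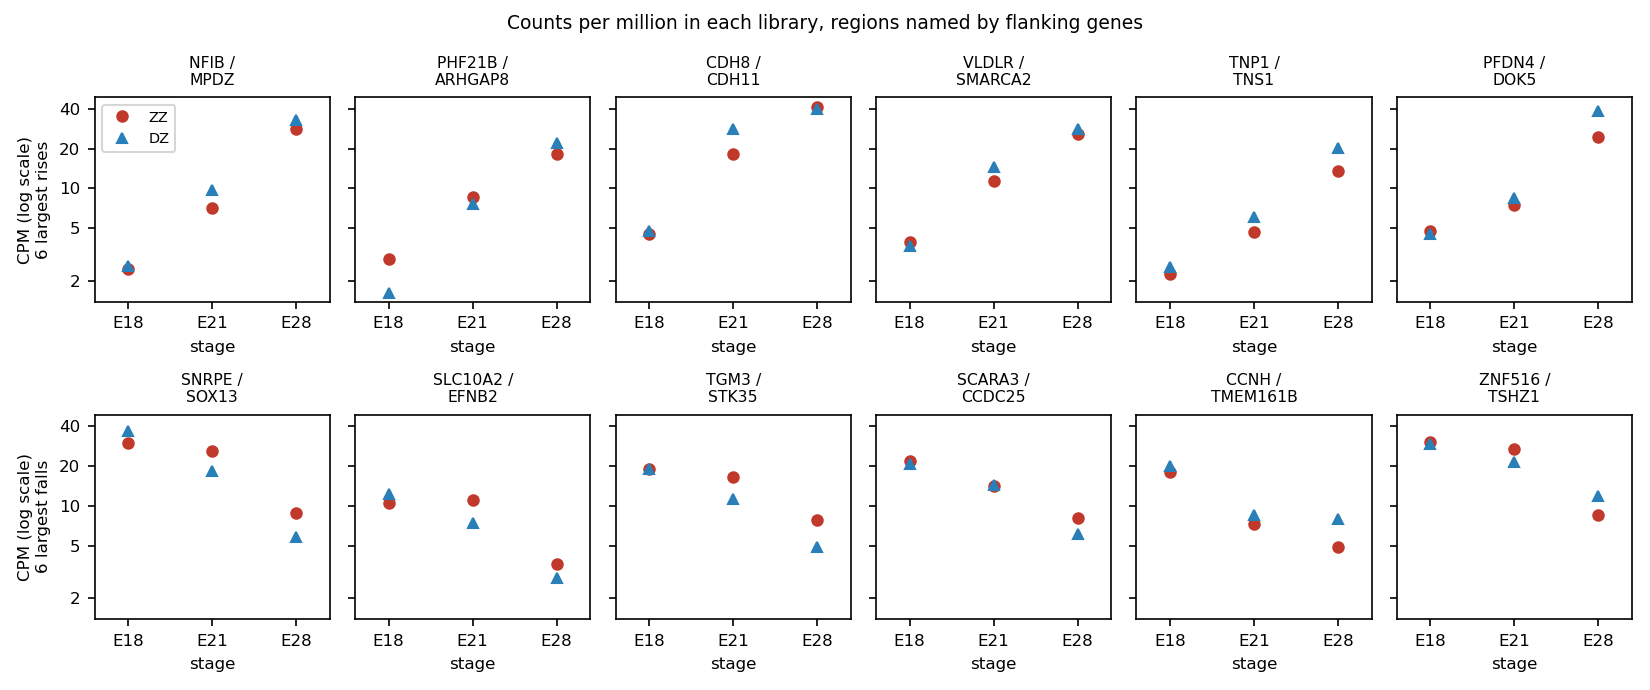
CPM, on a log axis, of the 6 largest rises (top) and the 6 largest falls (bottom) between E18 and E28 at nearly constant cover. There is 1 point per library, and each region is labelled by its flanking genes. ZZ and DZ of a stage lie close together for most of them, and the rise between NFIB and MPDZ goes from 2.48 to 32.8 CPM.

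Further regions were named for a single step. Between DUSP6, a phosphatase that damps ERK signalling, and KITLG, the KIT ligand, a region on chromosome 5 had 2.11 and 2.45 CPM in the E18 pair, 10.2 and 10.3 in the E21 pair and 8.77 and 5.69 in the E28 pair. It rose by 2.16 ± 0.299 on the log2 scale in the first step (adjusted p = 0.0264), and the second step, -0.52, did not pass (adjusted p = 0.290). A region between FBN2, a fibrillin of the elastic matrix, and SLC27A6 rose from 1.77 and 1.87 CPM to 5.06 and 11.3 by E21, and had 7.59 and 12.3 in the E28 pair. Its E21 libraries differed more between the breeds than its E18 libraries did. Between NUAK1 and C5H12orf75 a region stayed at 2.38 to 2.79 CPM in all 4 somite libraries and then reached 6.74 and 11.2. The region between FIGN and GRB14 had 10.0 and 9.97 CPM in the E18 pair, 13.6 and 11.2 in the E21 pair, and 4.63 and 4.30 in the E28 pair, a fall of 1.47 on the log2 scale in the second step (adjusted p = 0.0283). Without either E21 library no shared region was called in a single step, and so none of the 12 single-step calls named. Their log2 changes kept their sign and were 0.76 to 1.24 times those of all libraries. The E28 to E18 calls named so far remained, other than that between SLC10A2 and EFNB2 without E18 DZ.

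Count and covered length moved together at the member just inside the distance limit. This region near SOX1, a neural SOX factor, had 11.4 and 9.82 CPM in the E18 pair, 10.1 and 7.08 in the E21 pair, and 1.21 and 0.237 in the E28 pair, a log2 change of -4.12 ± 0.566 (adjusted p = 0.00548). Its called peaks spanned 2641 and 2577 bp in the E18 pair but 357 and 89 bp in the E28 pair, and with the offset the change was -0.43 (adjusted p = 0.164). A lower accessibility and a shorter called peak cannot be told apart here.

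The brightest distal region has a near copy in the mitochondrial genome. It lies between RALYL and SNX16 on chromosome 4 (53952732 to 53954477), and 1425 bp of it matched the mitochondrial sequence at 98.5% identity. It had 75.9 and 87.9 CPM in the E18 pair, 127 and 131 in the E21 pair and 72.9 and 43.6 in the E28 pair, and how its counts divide between the copies was not tested. Another distal region, on chromosome 15, had such a match, of 565 bp at 94.5%. In all, the windows of 36 regions had another copy in the assembly at 90% identity or more.

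The next 5 by mean CPM were unique. The region between RPS6KA1, a ribosomal S6 kinase, and ARID1A, a SWI/SNF subunit, had 62.0 and 62.7 CPM in the E18 pair, 71.6 and 92.7 in the E21 pair and 102 and 115 in the E28 pair. It rose by 0.79 ± 0.102 on the log2 scale from E18 to E28 (adjusted p = 0.00480). That between TCF7L1, a transcription factor of the Wnt pathway, and KCMF1 rose by 0.67 ± 0.113 (adjusted p = 0.00883, and 0.0508 without E18 DZ). A region 76.3 kb from HMGA2, a chromatin protein of growing embryonic cells, had 63.9 and 67.4 CPM in the E18 pair, 58.7 and 60.2 in the E21 pair and 55.4 and 60.2 in the E28 pair. One 54.9 kb from MEF2A, a transcription factor of muscle differentiation, had 53.8 and 54.4, 59.4 and 65.1, and 63.5 and 59.7. A region 124 kb from TRIO, a guanine nucleotide exchange factor of small GTPases, had 47.9 and 51.5 CPM in the E18 pair and 60.0 and 67.2 in the E28 pair, a rise of 0.35 ± 0.084 (adjusted p = 0.0230) that was not called without either E18 library (0.41 and 0.30). In the refit of nearly constant cover, which lowers all these values by about 0.23, it was 0.13 (adjusted p = 0.351).

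The HMGA2 and MEF2A regions were also the most open of the steady ones, those under 0.25 in every fitted stage contrast. Another was the region between HS1BP3 and RHOB, at 39.1 to 57.1 CPM. The RHOB region lost cover, from 4269 and 3063 bp in the E18 pair to 1868 and 1852 bp in the E28 pair, so per covered base its sign turned (0.80 with the offset). Such steady regions are a minority of the distal set and were picked by the same fits, which makes their small changes a description.

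Gaps between genes held uneven numbers of distal regions. The rule confines these regions to wide gaps and no expected spread was computed, so no clustering is read from the numbers. They fell into 2066 gaps between neighbouring annotated gene bodies, 632 of which held 1 region and 224 at least 10, and these 224 held 3435 regions (38.4%). Gaps are named by the nearest protein-coding genes with a symbol, which can lie beyond the annotated genes that bound a gap. The fullest gap, 711 kb on chromosome 14, held 56. It is named by CRYBA4, a lens crystallin, and MN1, a transcriptional coregulator. Next were the gaps between RFPL4B and MARCKS, a substrate of protein kinase C, with 42, between CMPK2 and SOX11 and between ZFHX3 and PSMD7, with 34 each, and between ZNF516 and TSHZ1, with 32. The gaps before SOX1, before IRX1 and between BRD1 and FAM19A5 held 31 each. SOX1, SOX11 and IRX1 encode transcription factors best known from neural development and patterning, and ZFHX3 encodes a large zinc finger homeobox protein.

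The full gaps held rises and falls side by side. Of the 224 gaps with at least 10 regions, 189 held both rises and falls between E18 and E28, 25 held rises and no falls, and 9 falls and no rises. With 22.6% rises and 15.7% falls among all distal regions, gaps with this many regions can hold both by those shares alone, and nothing particular to gaps is read from the count. Of their 728 regions of nearly constant cover 200 rose (27.5%) and 24 fell (3.30%). In the MN1 gap 15 rose and 9 fell, and summed CPM was 348 and 353 in the E18 pair, 345 and 391 in the E21 pair and 341 and 351 in the E28 pair. The sum over the gap hardly moved while its covered length went from 70238 and 66588 bp to 45493 and 45107 bp. In the MARCKS gap 16 rose and 7 fell, with sums of 237 and 243 in the E18 pair and 303 and 348 in the E28 pair, over 39149 and 35186 bp and 36257 and 38998 bp. In the ZFHX3 gap 15 rose and 3 fell. Its sums were 143.2 and 139.3 in the E18 pair, 227.8 and 262.5 in the E21 pair and 238.7 and 188.5 in the E28 pair, so both later stages lay above E18, over 39087 and 33745 bp, 47206 and 46206 bp, and 35732 and 31397 bp. The SOX11 gap peaked at E21, with 166.3 and 168.5, then 219.5 and 234.3, then 164.5 and 154.9, while its cover was 38073 and 30688 bp, then 41821 and 40910 bp, then 26370 and 25784 bp. Of its 34 regions 2 were of nearly constant cover, and 7 of the 34 rose and 7 fell between E18 and E28. The other 4 gaps held 1 to 7 rises and 2 to 8 falls.

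**Figure D4:**
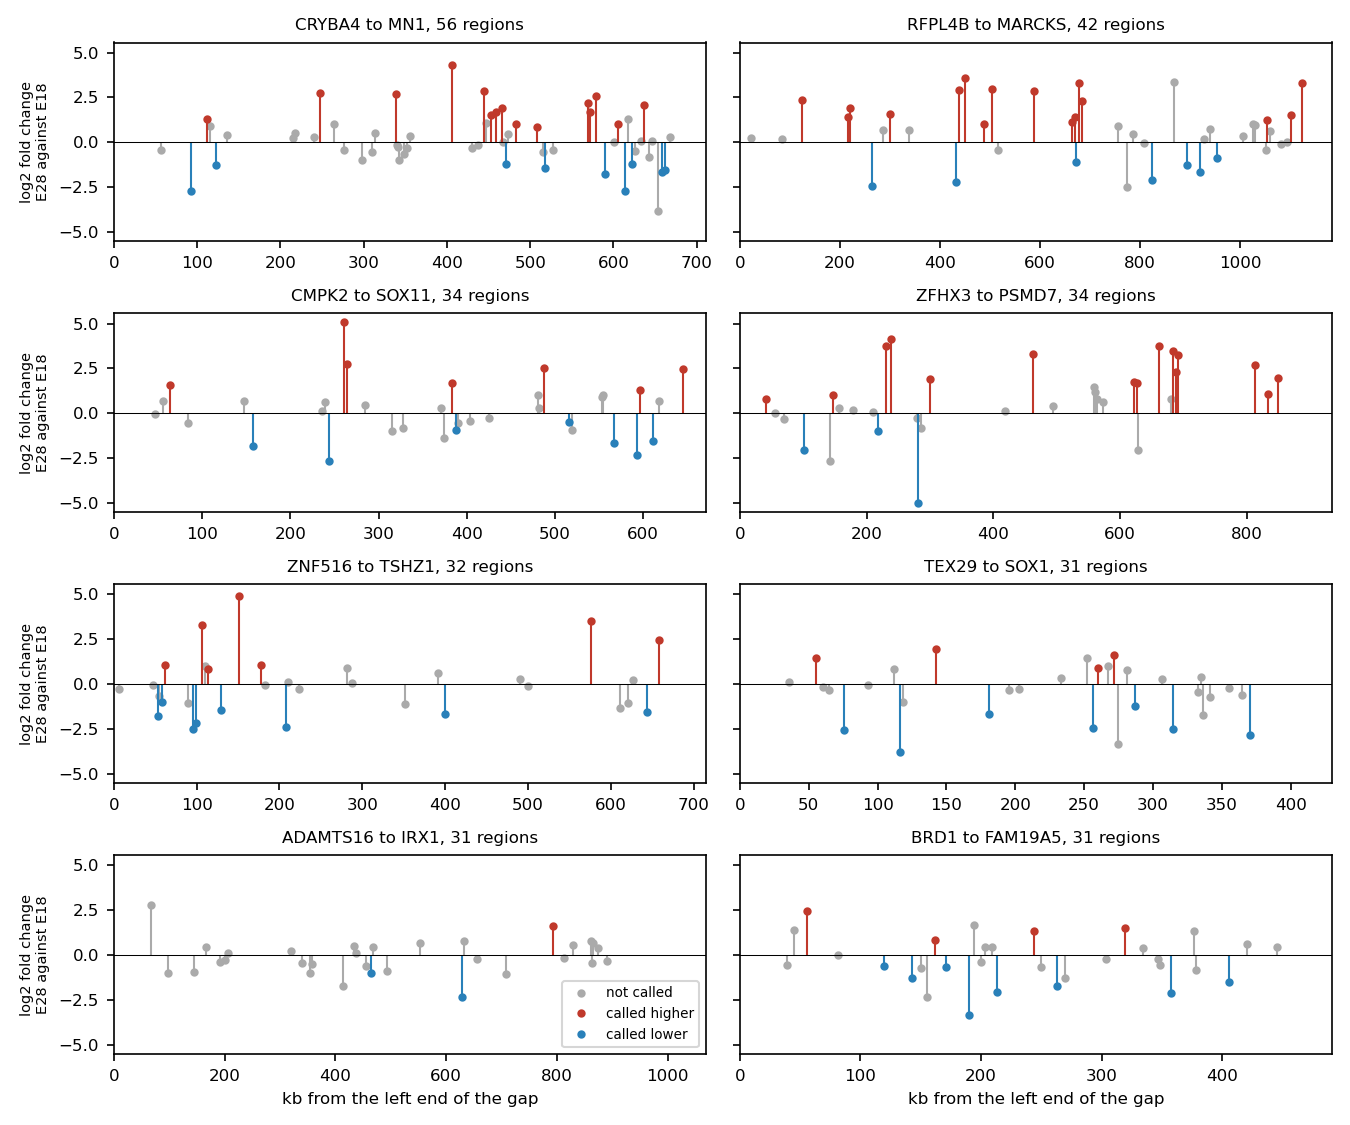
Log2 fold change between E18 and E28 of every distal region in the 8 fullest gaps, with 1 point per region and called regions in colour. Each of the 8 gaps holds both called rises and called falls.

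Regions were then grouped by the regulators that flank them, at whatever distance. The shares to read these groups against are 22.6% rises and 15.7% falls between E18 and E28 over all distal regions, and 22.0% and 3.37% over the 2047 of nearly constant cover. The last shares, like those of the groups, come from the fit of all shared regions. In the refit 523 of the 2047 rose and 222 fell. The values at nearly constant cover by group were added after the data were seen. From a list of 50 regulators of sclerotome (the part of the somite that forms cartilage) and mesenchyme 32 flanked 320 regions, of which 93 rose (29.1%) and 42 fell (13.1%) between E18 and E28, with a median log2 change of 0.40 beside 0.11 over all distal regions. Of the 62 at nearly constant cover 16 rose (25.8%) and 2 fell. SOX9, the master regulator of cartilage, flanked 36 (10 rises, 4 falls) and ZFHX3 36 (15 rises, 3 falls). Of these only 2.78% and 8.33% were of nearly constant cover, against 22.9% of all distal regions. ZEB2, a repressor known for epithelial-mesenchymal transition, flanked 25, of which 12 rose, with a median of 1.28. SOX6, a partner of SOX9 in cartilage, flanked 11, of which 5 rose. Going against the list, ALX4 had 1 rise and 5 falls among 11 regions and FOXF1 3 rises and 7 falls among 23. Summed over 6 chondrocyte markers, CPM was 377 and 373 in the E18 pair, 366 and 370 in the E21 pair and 357 and 305 in the E28 pair. Of these markers ACAN went from 54.8 and 50.6 to 31.2 and 25.5, but COL9A1 from 43 and 44.9 to 55.4 and 53.8. What part cartilage cells had in the calls was not tested.

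Of the 53 annotated neural regulators 37 flanked 510 regions, of which 92 rose (18.0%) and 121 fell (23.7%) between E18 and E28. The losses came late: 64 fell from E21 to E28 (12.5%, against 5.30% of all distal regions) and 12 rose. At nearly constant cover, 92 regions, 3 fell and 4 rose in that step, and 18 rose (19.6%) and 9 fell (9.78%) between E18 and E28. NR2F2, an orphan nuclear receptor of veins, mesenchyme and brain, had 6 rises and 18 falls among 39 regions, IRX5 1 and 5 among 15, and IRX3 1 and 4 among 10. SOX11 had 16 rises and 10 falls among 68. The largest change of this list at nearly constant cover was itself a rise, in a region 1261 kb from SOX11 and 18.8 kb from DCDC2C, from 1.56 and 1.91 CPM in the E18 pair to 8.45 and 15.3 in the E28 pair (2.73 ± 0.303, adjusted p = 0.00370). Summed over the gene bodies of 7 neural progenitor markers, CPM went from 457 and 515 in the E18 pair and 432 and 396 in the E21 pair to 281 and 349 in the E28 pair, and over 6 neuron markers from 316 and 320 to 203 and 201. SOX2, a defining marker of neural progenitors, had 35.7 and 43.0 CPM in the E18 pair and 18.3 and 25.6 in the E28 pair. The markers did not all fall alike. Among neuron markers ELAVL4 went from 91.4 and 90.8 to 26.3 and 24, but STMN2 from 14.4 and 17.1 to 18.8 and 19.2. NKX6-1 had 63.5 and 65.5 in the E18 pair and 45.7 and 65 in the E28 pair, and POU4F1 44.7 and 43.3, then 36.8 and 45.4. These cells' part in the falls was not tested.

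Of 31 myogenic regulators 17 flanked a distal region. These regions were few, 80, and 24 rose (30.0%) while 11 fell (13.8%), beside 22.6% and 15.7% of all distal regions. Of the 20 at nearly constant cover 5 rose. SIX2 flanked 15 and EYA1, its transcriptional coactivator, 8. The region between EYA1 and XKR9 went from 5.31 and 4.03 CPM in the E18 pair to 10.2 and 10.9 in the E21 pair and 11.5 and 16.1 in the E28 pair (1.55 ± 0.275, adjusted p = 0.01, and 0.0822 without E18 DZ). Summed over 10 myogenic markers CPM ranged from 565 to 664 in the 6 libraries, and MYOG, the factor of terminal muscle differentiation, went from 7.38 and 6.40 to 16.2 and 23.7. PAX3 and PAX7, factors of muscle progenitors, went the other way, PAX3 from 129 and 138 to 67 and 80.9 and PAX7 from 173 and 174 to 125 and 154. All 10 markers had counts in every library, also CHRNA1, a subunit of the muscle acetylcholine receptor, with 3.65 and 4.14 CPM in the E18 pair and 26.0 and 45.1 in the E28 pair.

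HOX partners, the homeodomain proteins that bind DNA with HOX factors, flanked 58 regions, with 15 rises and 8 falls, and 17 were of nearly constant cover, with 5 rises and 1 fall. MEIS1 had 13 rises and 3 falls among 32. The region of largest change at nearly constant cover in this list lay 411 kb from MEIS1 and 489 kb from SPRED2. It had 2.31 and 1.94 CPM in the E18 pair, 5.27 and 7.04 in the E21 pair and 8.42 and 22.6 in the E28 pair. The E28 libraries of the breeds thus stood well apart (2.72 ± 0.437, edgeR adjusted p = 0.00777). Endothelial and blood regulators flanked 73, with 12 rises and 14 falls, and 1 of the 19 at nearly constant cover rose. A bright one between KIRREL3 and ETS1, an endothelial and lymphoid factor, had 22.5 and 20.8 CPM in the E18 pair, 31.3 and 49.2 in the E21 pair and 37.2 and 36.2 in the E28 pair, and its call (0.76, adjusted p = 0.0312) was lost without E18 DZ or E28 ZZ. Blood markers summed to 157 and 144 CPM in the E18 pair and 108 and 112 in the E28 pair, with GATA1 at 0 in all 6 libraries.

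Signalling genes flanked 574 regions, with 147 rises (25.6%) and 81 falls (14.1%) between E18 and E28, close to the 22.6% and 15.7% of all distal regions. Of the 120 at nearly constant cover 31 rose (25.8%) and 4 fell. GLI3, a transcription factor of the hedgehog pathway, had 8 rises among 15, with a median of 1.58, and PDGFC, a platelet-derived growth factor ligand, 7 and 3 among 12. GLI2, of the same pathway as GLI3, had 2 and 6 among 24. Of the ephrin system, EFNA5 had 8 rises and 1 fall among 14, EPHA7 11 and 4 among 35, EPHA4 7 and 3 among 29, and EFNB2 6 and 10 among 40. The EFNA5 region printed above, between EFNA5 and FBXL17, went from 3.67 and 4.96 CPM in the E18 pair through 11.4 and 14.7 to 21.1 and 24.2 in the E28 pair (2.41 ± 0.183, adjusted p = 0.00271).

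Neuronal adhesion genes, taken for comparison because they too lie in large gene deserts, flanked 436 regions, of which 107 rose (24.5%) and 51 fell (11.7%), with a median of 0.39. Their share of rises was close to the 22.6% of all distal regions, and at nearly constant cover 22 of 96 rose (22.9%) and 5 fell (5.21%). PCDH18, a protocadherin, had 9 rises among 15, PCDH17 7 among 27, and FLRT2, which flanked the most, 16 and 12 among 55. CDH11 also stands in this list, though it is a mesenchymal cadherin, and had 7 and 1 among 22. Fibroblast and mesenchyme markers summed to 474 and 443 CPM in the E18 pair, 471 and 553 in the E21 pair and 624 and 595 in the E28 pair. Among them TWIST2 went the other way, from 75.8 and 66.9 in the E18 pair to 69.4 and 58.2 in the E28 pair. Epithelial markers went from 316 and 308 to 149 and 158 and cardiac markers from 163 and 160 to 82.8 and 97.8. The part of these cell types in the counts was not tested.

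Distance and base composition went with the direction of change over all distal regions. At nearly constant cover the order by base composition was seen for falls and not for rises. Of the 188 regions over 500 kb from a start site, 25 (13.3%) rose in the first step, against 6.87% of those at 50 to 100 kb. At nearly constant cover 1 of 36 and 46 of 1013 (4.54%) did, and 36 regions are too few to tell whether the difference holds there. Between E18 and E28, rises made up 27.4%, 27.0%, 21.3% and 14.3% of the regions from the lowest to the highest quartile of GC content, and falls 7.62%, 12.8%, 17.8% and 25.1%. At nearly constant cover the rises were 21.9%, 23.2%, 21.9% and 20.8%, with no such order in this subset, and the falls 1.01%, 2.47%, 4.47% and 6.29%. The bounds of these quartiles were 43.0%, 48.0% and 53.7% GC. Farther regions were also more AT-rich, with a median GC content of 43.7% beyond 500 kb and 49.3% within 100 kb, so the 2 trends share their regions. Regions of higher mean CPM were called more often in both directions, with 11.2% rises and 5.23% falls in the lowest quartile of level and 32.1% and 24.1% in the highest, and at nearly constant cover with 13 rises and 0 falls among 383 and 294 rises and 61 falls among 760. The 3 farthest regions were a pair between PCDH9 and KLHL1 and another between SEL1L and FLRT2. The first, printed above, had 1.53 to 5.76 CPM and the second 1.04 to 3.75. Neither was called in any stage contrast without the offset, and with it each was called in at least 1. The third had 7.25 and 6.31 CPM in the E18 pair and 3.19 and 1.46 in the E28 pair, over 1179 and 1085 bp and then 660 and 401 bp (-1.60, adjusted p = 0.0254), a call that was lost with the offset (0.0841) and without either E18 library.

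A small group of distal windows resembled CpG islands. Distal windows had a median GC content of 48.0% and an observed to expected CpG ratio of 0.27, close to intron windows (47.7% and 0.275) and unlike promoter windows (66.0% and 0.769). Of the distal windows 546 (6.11%) had a ratio of at least 0.6 and at least 50% GC, as 68.6% of promoter windows and 4.26% of intron windows did. They made up 29 of the 61 regions open in over 10% of barcodes everywhere. Their median share of open barcodes was 3.59%, against 1.92% for the others, 9.16% against 5.42% were steady, and between E18 and E28 15.4% rose and 22.9% fell. Of the 136 at nearly constant cover 31 rose (22.8%) and 10 fell (7.35%), against 21.9% and 3.09% of the other windows. This grouping was chosen after the values were seen. Whether any of these windows holds a start site that the annotation lacks was not tested.

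Motif content set distal windows apart from promoters and not from intron windows. Motifs were exact matches to fixed letters on either strand of the 300-base windows. E-boxes are core sites of basic helix-loop-helix factors such as those of muscle, and 3 forms were searched. E-box a was CAGCTG. The form called E-box b had the letters CATCTG. The third, E-box c, read CATATG. The motif of AP-1, the Fos and Jun dimer, was TGANTCA. For the TEAD factors of the Hippo pathway it was GGAATG. That of SOX factors was taken as ACAATGG. Single sites of nuclear factor I (NFI) were read as TTGGCA. Homeodomain proteins were given TAATTA, their common core. For the MEIS proteins, which bind beside HOX factors, the letters were TGACAG. Joint PBX-HOX sites were searched as TGATTNAT. The zinc finger factors of the GATA family were given AGATAA. RUNX factors, of blood and bone, were given TGTGGTT. Forkhead proteins (FOX) were given the letters TGTTTAC. For ETS factors, of endothelium and many promoters, the string was CCGGAAG. The MEF3 site, bound by the partners of EYA, was written TCANGTTTC. The GC box of the SP family was GGGCGG. CTCF, MEF2, the NFI palindrome and EBF were searched by their consensus. The NFI palindrome can overlap the single NFI site. A match is a string of letters and not evidence of binding. Promoter windows had a median GC content of 66% and distal windows 48%. No match rate expected from base composition was computed, so its part in the shares below was not tested. E-box b was found in 31.4% of distal, 31.6% of intron, 27.9% of near intergenic and 12.1% of promoter windows. E-box a was in 29.9%, 29.2%, 28.7% and 19.6%, AP-1 in 12.2%, 11.9%, 10.9% and 4.38%, and PBX-HOX in 7.99%, 7.60%, 4.97% and 1.45%, in the same order. GC boxes went the other way, with 12.4%, 10.8%, 19.4% and 60.4%, as did ETS sites, with 1.79%, 1.70%, 2.58% and 11.4%. CTCF matches were in 3.74% of distal, 4.09% of intron, 7.97% of near intergenic and 1.40% of promoter windows. The other motifs ranged from 0.0783% for the NFI palindrome to 25.2% for TEAD in distal windows.

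**Figure D5:**
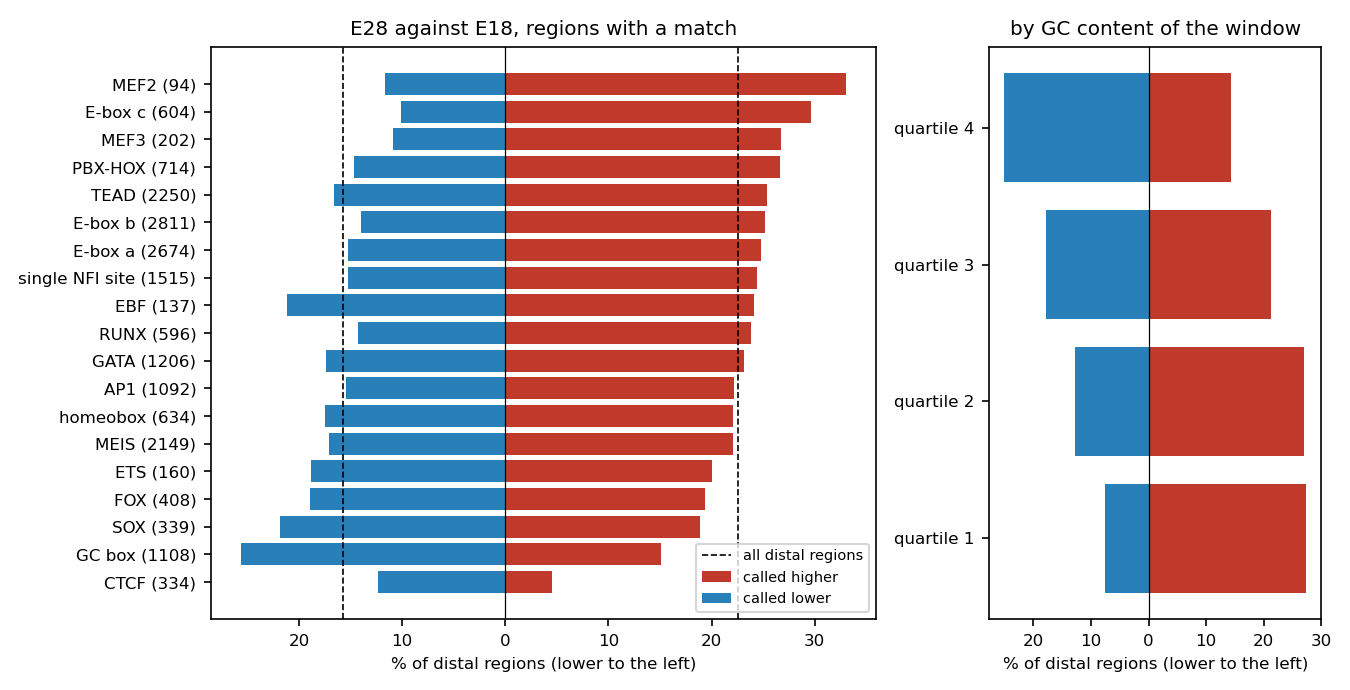
Percent of distal shared regions that rose or fell between E18 and E28 among windows with a match to each motif (left, number of regions in parentheses, dashed lines for all distal regions) and by quartile of GC content (right), with falls drawn to the left. Windows with a CTCF match have 4.49% rises against 23.3% in the rest, and windows with a MEF2 match 33.0% against 22.5%.

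Distal regions with a CTCF match seldom rose. Of these 334 regions, 15 rose (4.49%) and 41 fell (12.3%) between E18 and E28, against 23.3% and 15.9% of those without one. Among regions of middle GC content the shares of rises were 6.54% and 24.9%, and among those of nearly constant cover 2.22% and 23.4%. The region between NPTX1 and SLC26A11 printed above is one of them, with 18.7 and 18.9 CPM in the E18 pair, 16.9 and 19.5 in the E21 pair and 17.9 and 23.9 in the E28 pair. It is not typical of them. Its window has 72.3% GC, while the regions with a CTCF match had medians of 47.7% GC and 3.14 CPM. Regions with a MEF2 match, a site of factors that act with the myogenic regulators, rose more often over all distal regions: 31 of 94 (33.0%) between E18 and E28, and 18 (19.1%, against 8.09% of the others) in the first step. Among regions of middle GC content 34.1% rose between E18 and E28, against 24.2% without a match. At nearly constant cover only 14 regions with a match were left, of which 3 rose (21.4%), against 22.0% without one. These are too few to tell whether the excess holds there. An example is the region between ATF7IP and GRIN2B, with 3.57 and 3.5 CPM in the E18 pair, 9.70 and 7.60 in the E21 pair and 12.5 and 16.4 in the E28 pair (2.03 ± 0.262, adjusted p = 0.00484). E-box c had 29.6% rises and 10.1% falls among 604 regions, and among those of middle GC content 29.5% rises against 23.9% without it. Windows with a SOX match fell more often from E21 to E28, 9.73% of 339 against 5.13%. With a GC box 15.1% rose and 25.6% fell, which at middle GC content narrowed to 21.9% and 19% beside 24.5% and 14.9%. At nearly constant cover 21.0% rose and 8.02% fell, beside 22.1% and 2.69% without a GC box. These shares are descriptions over regions and carry no test.

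Between the breeds no distal region was called by the main test. edgeR called 0 of 8939 for DZ against ZZ, as it called 0 of all shared regions (background 0%), with 528 distal regions at an unadjusted p under 0.05. DESeq2 called 20 higher and 2 lower in DZ (background 0.164% and 0.0382%, in all 0.202%). The median log2 difference was 0.01, and 5% of regions lay below -0.71 and 5% above 0.78. Within a stage, the SD over regions of the log2 ratio of DZ to ZZ grew from 0.407 in the E18 pair and 0.481 in the E21 pair to 0.728 in the E28 pair, where libraries were shallowest. Across the 8939 regions log2 CPM of the 2 breeds correlated at 0.942 in the E18 pair, 0.904 in the E21 pair and 0.817 in the E28 pair, and libraries of different stages at 0.342 to 0.767, all sharing the same regions and their covered lengths. With 1 pool per stage and breed this comparison has 3 libraries a side, and a p above the threshold does not show that the breeds were alike.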

How the data were processed

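The deposited counts are, per the file headers and methods, numbers of Tn5 cut sites per called peak and barcode, made by the authors with Cell Ranger ATAC 1.2.0 on Sscrofa11.1, with peaks called per library. Most values (90.1% to 92.4%) were even. Genes and start sites came from RefSeq annotation release 106 of Sscrofa11.1. Peaks were merged at 1 bp overlap, barcodes with 2000 to 30000 counts were kept (58809 of 64439) and their counts summed per region and library. edgeR 4.0.16 (TMM, filterByExpr, quasi-likelihood test, stage plus breed, 2 residual degrees of freedom) was fitted to all 78533 regions with a peak of all 6 libraries, with Benjamini-Hochberg adjustment at 0.05, after it was tested on simulated data. DESeq2 1.42.0, covered length as an offset, other filters and each library left out were alternatives. Medians per library were compared by exact permutation tests. Doublets were not removed, and cells were not grouped by type. Levels are CPM per region or per kilobase covered by peaks.

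Flanking genes are the nearest protein-coding genes with a symbol on each side. Regions named are the 6 largest rises and 6 largest falls between E18 and E28, and 3 each for the other steps, among called regions with the same sign in both breeds and covered lengths within 1.5 times, then the 6 of highest mean CPM, the 4 highest steady ones, the 8 fullest gaps, the 3 farthest, those at the limits, and 1 per flanking list. Some results that fall under these rules are not reported here. The regions and lists were chosen with earlier results of these data known. Copies were sought with minimap2 2.31 and blastn 2.17.0. Intervals and spreads cover counting error and library differences only.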

Additional observations from a re-analysis of the deposited data

Results flagged for a closer look

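Of the distal shared regions, 17 moved at least 2-fold in opposite directions in the 2 breeds between E18 and E28, counted as log2 ratios of CPM with 0.5 added. The 3 with the widest gap are given, and each flag means only that ZZ and DZ went opposite ways. The difference was not tested, since there is 1 library per stage and breed. Between NMI and RND3 (chromosome 15, start 1209500) the change was -1.01 in ZZ and 2.56 in DZ. Its CPM went from 0.728 to 0.108 in ZZ and from 0.0082 to 2.49 in DZ, while peaks covered 374 and then 75 bp in ZZ and 10 and then 468 bp in DZ. Between AKR1E2 and KLF6, a Krüppel-like transcription factor gene (chromosome 10, start 66225630), it was -2.39 in ZZ and 1.01 in DZ, with covers of 708 and 1067 bp in DZ. Between C1H15orf41 and DPH6 (chromosome 1, start 134789889) it was -1.32 in ZZ and 1.77 in DZ, with covers of 511 and 96 bp against 228 and 592 bp. In all 3 the covered length moved with the count, and its part was not tested.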

How the results depend on the processing

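Other size factors, library totals, no filter, no breed term, other barcode limits and counting open barcodes kept each contrast's calls within 1.5 times. So did leaving out copies or asking for 100 bp of cover in every library, both chosen after seeing the data. These calls are rises plus falls, and counting open barcodes moved the falls from E18 to E21 from 111 to 175. Calls for E21 against E18, E28 against E21 and E28 against E18 were 845, 774 and 3427. DESeq2 called 2045 and 2026 in the first pair and 22 for DZ against ZZ. The covered-length offset gave 2041 and 2852, and turned the shares of rises in the last pair of contrasts from 38.8% and 58.9% to 89.4% and 87.3%. Regions of nearly constant cover, refitted alone (2047), gave 328, 272 and 745, with log2 changes lowered by a median of 0.07, 0.15 and 0.23. Asking each library to cover at least 50% of a region left 3921 regions, with 1637 calls between E18 and E28 (39.4% of all shared regions in that fit were called). A limit of 100 kb left 4718 regions with 490, 406 and 1828 calls, and protein-coding genes alone as annotation gave 16021 with 1510, 1411 and 6170. Leaving out 1 library gave 0 to 2429, 0 to 2111 and 1183 to 3681 calls. The level ratios then ranged from -1.60 to -1.54 against promoters, 0.03 to 0.04 against introns, -0.14 to -0.10 against near intergenic regions and -2.73 to -2.66 for open barcodes, each at p = 0.0625, the smallest that the exact permutation test allows with 5 libraries. Per region instead of per covered kilobase, the ratio to introns was -0.00. The region between HS1BP3 and RHOB went from -0.17 to 0.80 with the offset. Of 42 fold changes named, 12 lost their call without E18 DZ, 12 without E21 ZZ and 12 without E21 DZ. Windows of 500 bases raised all 20 motif shares of distal regions, and the EBF share, 1.53% against 1.29% in promoters with 300 bases, became 2.10% against 2.29%. The breed term pairs the libraries of a breed across stages, and without it the calls were 956, 785 and 3435. The effect of depth was not tested, and both E28 libraries were the shallowest.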
